A study of Mus musculus with 23 samples.

Results

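Interferon gamma switches on 2 families of GTPases that defend the inside of the cell against microbes living in vacuoles. The guanylate-binding proteins (GBPs) and the smaller immunity-related GTPases (IRGs) gather on the membrane around a vacuole or on released bacteria, break it open and pass microbial material to the sensors of the cytosol. Binding of interferon gamma to its receptor activates the kinases JAK1 and JAK2, and the signal reaches GBP and IRG promoters in part through the transcription factor IRF1. Splenic dendritic cells, which take up microbes and present their antigens, carry this pathway. The set described here has 10 genes, found by symbol among the 47729 Ensembl gene identifiers of the count matrix: the 6 GBP genes Gbp2, Gbp3, Gbp4, Gbp5, Gbp7 and Gbp9 and the 4 IRG genes Igtp, Irgm1, Irgm2 and Iigp1. All 10 were found, and all 10 passed the filter on low counts that kept 19597 genes for testing.

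The libraries hold RNA of sorted spleen dendritic cells of wild type BALB/c mice, 8 from untreated mice and 15 of them from mice labelled TLI, an abbreviation that the labels do not expand and that commonly stands for total lymphoid irradiation. No dose, time after treatment or age is given in the labels. The gates were DC1a (CD8 high, CD172 negative), DC1b (CD8 intermediate, CD172 positive), DC2 (CD8 low, CD172 high) and DC3 (CD8 negative, CD172 low). Each untreated group held 2 libraries and each TLI group 4, apart from 3 for DC2. The labels number each library by pool or set, and a shared number is taken here to mark subsets of the same pooled mice. The untreated pools and TLI pools 1 and 2 carry batch 1 in the labels, and TLI pools 3 and 4 carry batch 2, so that batch 2 holds no untreated library.

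Totals ran from 19256447 to 36997890 estimated counts a library, and the 3 counts taken as the floor of detection corresponded to between 0.0811 and 0.156 CPM (counts scaled to the total of the library). Floors cover counting error only, since amplified reads are not independent molecules. Summed CPM of 6 dendritic cell markers lay between 10575 and 101933 over the libraries, with a count for all 6. The 8 DC1 markers summed to at most 487 CPM in DC2 libraries and at least 773 in all others, and the 8 DC2 markers to at most 63.1 CPM in DC1a libraries and at least 268 in all others. In cells sorted as DC3, although without CD8, the DC1 markers thus summed to 2052 to 3306 CPM, of which Irf8 alone held 515 to 1123. Untreated DC3 libraries also held B cell markers (310 and 131 CPM) and plasmacytoid dendritic cell markers (256 and 197 CPM). The sums do not show which cells the DC3 gate held. Untreated DC1b libraries also held plasmacytoid dendritic cell markers (4035 and 5616 CPM), and TLI DC1b libraries neutrophil markers (1406 to 21014 CPM, against at most 20.2 in untreated DC1b). Monocyte and macrophage markers summed to 8133 to 26051 CPM in TLI DC1b and to 4290 and 7199 CPM in untreated DC1b. The part of these in the results was not tested.

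Promoters are shown first, because a shared feature of the set lies in their letters. RefSeq gives promoters, 250 bases before to 50 after a transcription start on GRCm38.p6, for 7 of the 10 members, and 8 in all since Gbp3 has 2 annotated starts. Gbp4, Gbp9 and Iigp1 had no entry. Both strands were searched for the gamma-activated site TTCNNNGAA, known from promoters that respond to interferon gamma, and for the core of the interferon-stimulated response element (ISRE), GAAA, any 2 bases and GAAA again, bound by interferon regulatory factors. The ISRE core was present in a promoter of 7 of these 7 members, beside 3.44% of all 32851 promoters of that length. The gamma-activated site was present in 4 of 7, beside 8.30%. The last 170 bases before the start are printed here 5′ to 3′ along the gene, with matches to either motif in capitals.
Gbp5: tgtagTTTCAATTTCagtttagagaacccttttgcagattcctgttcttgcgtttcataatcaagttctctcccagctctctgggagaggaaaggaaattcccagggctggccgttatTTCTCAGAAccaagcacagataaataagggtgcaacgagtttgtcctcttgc
Gbp7: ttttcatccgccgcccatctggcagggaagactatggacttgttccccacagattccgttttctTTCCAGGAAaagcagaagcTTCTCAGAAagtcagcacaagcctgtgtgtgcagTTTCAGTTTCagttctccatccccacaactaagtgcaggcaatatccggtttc
Gbp3: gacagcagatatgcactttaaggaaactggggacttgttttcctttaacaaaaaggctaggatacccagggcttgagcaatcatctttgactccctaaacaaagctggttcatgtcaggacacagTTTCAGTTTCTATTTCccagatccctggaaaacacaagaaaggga
Gbp2: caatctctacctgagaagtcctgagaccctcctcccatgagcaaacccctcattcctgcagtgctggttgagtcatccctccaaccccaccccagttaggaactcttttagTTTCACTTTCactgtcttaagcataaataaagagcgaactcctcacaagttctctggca
Irgm1: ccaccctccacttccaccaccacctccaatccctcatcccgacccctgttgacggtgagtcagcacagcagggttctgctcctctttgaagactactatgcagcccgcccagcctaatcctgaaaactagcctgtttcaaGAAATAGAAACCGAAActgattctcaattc
Igtp: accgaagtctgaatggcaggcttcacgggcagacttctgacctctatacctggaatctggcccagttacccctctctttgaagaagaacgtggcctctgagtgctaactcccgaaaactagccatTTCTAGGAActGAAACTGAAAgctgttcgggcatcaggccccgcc
Irgm2: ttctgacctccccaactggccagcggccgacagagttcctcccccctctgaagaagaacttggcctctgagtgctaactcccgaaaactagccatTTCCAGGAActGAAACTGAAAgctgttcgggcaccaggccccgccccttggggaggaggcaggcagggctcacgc
These stretches lie at chr3:142496764-142496933, chr3:142530166-142530335, chr3:142559874-142560043, chr3:142620493-142620662, chr11:58199386-58199555 and chr11:58214807-58214976 on the plus strand and, for Irgm1, at chr11:48871421-48871590 on the minus strand. In Igtp and Irgm2 the order is the same, a gamma-activated site, 2 bases, and then the ISRE core GAAACTGAAA, beginning 45 and 75 bases before the start. Both ISRE matches of Gbp3 and both of Irgm1 overlap each other. A further gamma-activated match of Gbp5 begins 245 bases before its start, outside the printed stretch, and the second start of Gbp3 had neither motif. A match is a run of letters and does not show that a factor binds there.

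**Figure D1:**
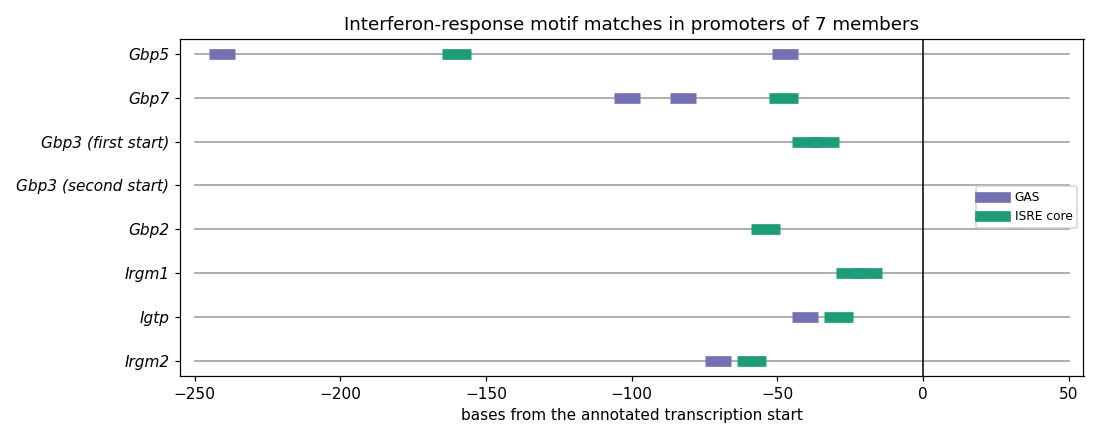
Position of matches to the gamma-activated site (GAS, purple) and the ISRE core (green) on either strand, in bases from the annotated transcription start (0), in 8 RefSeq promoters of 7 members. An ISRE core is drawn for each member, and for 6 of the 7 it begins within 65 bases before the start, against 165 for Gbp5.

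The genes sit in a few clusters. On chromosome 3 of GRCm38, Gbp5 (142493978 to 142522344), Gbp7 (142530342 to 142550149), Gbp3 (142560026 to 142573209) and Gbp2 (142620602 to 142638008) follow each other on the plus strand. On chromosome 5, Gbp9 (105077630 to 105139539) and Gbp4 (105115767 to 105139586) overlap on the minus strand together with Gbp8, which is not a member. On chromosome 11, Igtp (58199556 to 58207591) lies inside the gene model of Irgm2 (58199618 to 58222782) on the plus strand except for its first bases, and Irgm1 (48861968 to 48871683) lies apart on the minus strand. Iigp1 lies on chromosome 18 (60376027 to 60392634, plus strand). Annotated exons, untranslated regions included, were counted for each gene.

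Sequence shared between the genes limits how far reads can be assigned. Of all 76-base windows of the annotated transcripts, 76 bases being the read length, 11.2% of those of Gbp7 also occur in another gene, mostly Gm43802, with which it overlaps. The share was 7.66% for Igtp, all with Irgm2, and 4.66% for Irgm2. It was 3.47% for Gbp9 and 2.98% for Gbp4, and at most 2.00% for the other 5, with no shared window in Irgm1 or Iigp1. Values of Gbp4, Gbp9, Igtp, Irgm2 and Gbp7 therefore carry an uncertainty in how the authors' software split the reads.

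Per length of exon, Irgm1 was the highest of the members, with a median of 14.9 TPM (counts divided by exon length and scaled to a common total in each library) over the 23 libraries. Igtp followed at 12.7, Gbp9 at 7.95, Gbp2 at 7.11 and Gbp4 at 6.16 TPM. Irgm2 (2.05), Gbp3 (1.88), Gbp7 (0.824), Iigp1 (0.507) and Gbp5 (0.415) were low. With the length of the longest transcript, Irgm1 and Igtp were again the highest, followed by Gbp4 in place of Gbp9. Of all 230 values, 21 were 0, of which 8 belonged to Iigp1, 5 to Gbp7, 4 to Gbp3, 3 to Gbp5 and 1 to Gbp2. Only Gbp4, Gbp9, Irgm1 and Irgm2 were above the floor in each library.

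**Figure D2:**
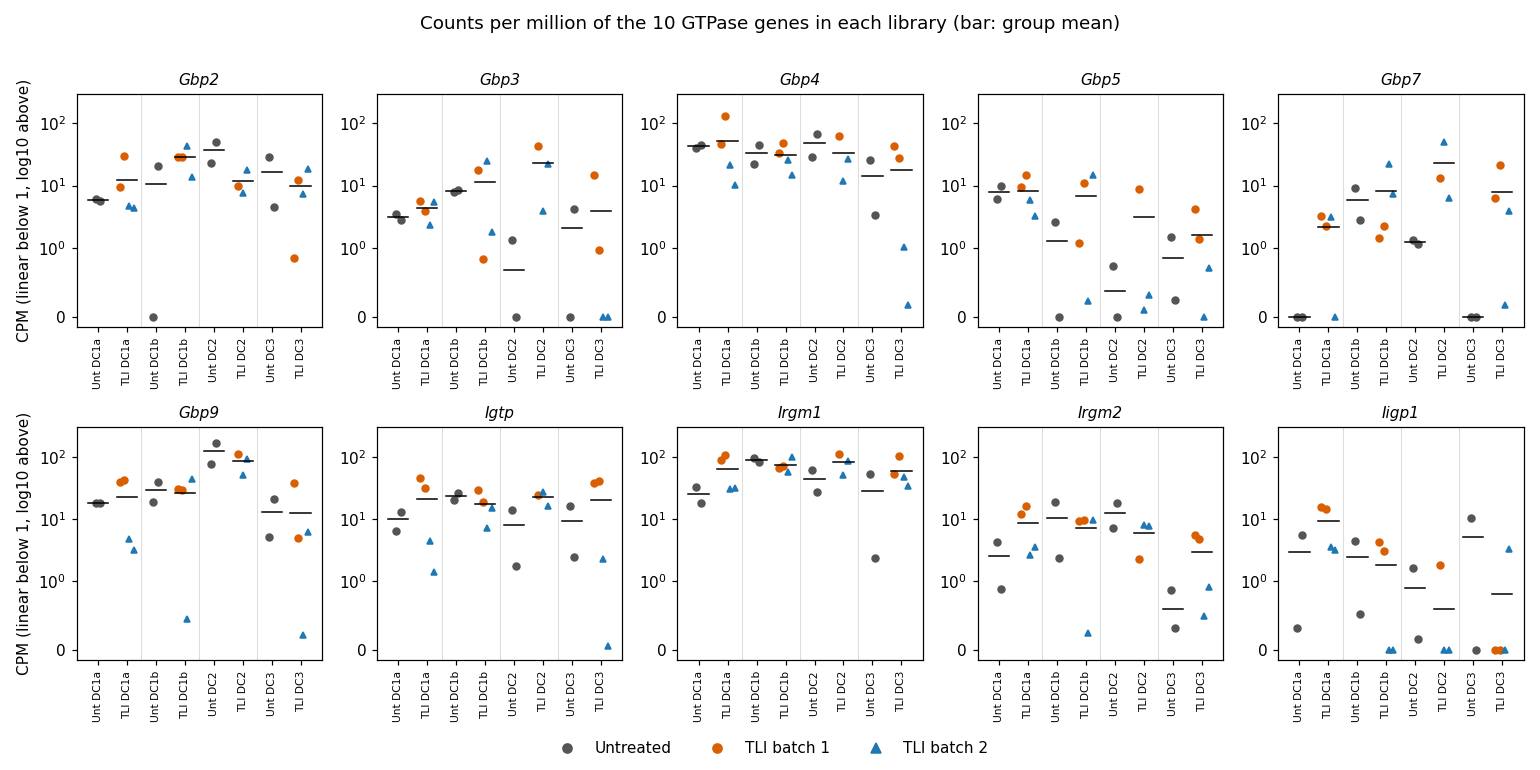
CPM of each member in each of the 23 libraries by subset and treatment (Unt, untreated), on a scale that is linear below 1 CPM and log10 above; black bars are group means, circles are batch 1 and triangles batch 2. Irgm1 lies between 2.31 and 112 CPM, while Iigp1 is at 0 in 8 libraries, and TLI libraries of batch 2 often lie below those of batch 1.

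Regulatory IRG proteins come first. Irgm1, Irgm2 and Igtp (also called Irgm3) sit on the cell's own membranes and keep the effector IRG proteins off them. In untreated mice Irgm1 was at 33.2 and 17.8 CPM in DC1a, 94.1 and 81.4 in DC1b, 60.4 and 26.6 in DC2 and 53.5 and 2.31 in DC3. Both DC1b libraries stood above all others, and the DC3 libraries differed from each other more than any other pair. After TLI the 4 DC1a libraries gave 89.5, 107, 30.4 and 30.9 CPM (pools 1 to 4), DC1b 65.4, 70.6, 56.6 and 101, DC2 112, 51.2 and 85.5 (pools 1, 3 and 4) and DC3 53.1, 103, 47.8 and 33.5. The fitted change from untreated to TLI in Irgm1 was a log2 fold change of 1.65 ± 0.81 (SE) in DC1a, with an adjusted p of 0.539 (edgeR's quasi-likelihood test, Benjamini-Hochberg adjustment over 19597 genes). It was 0.53 ± 0.81 in DC1b, 1.40 ± 0.86 in DC2 and 1.58 ± 0.81 in DC3, and none of these passed the threshold of 0.05 on the adjusted p.

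Igtp was at 6.48 and 13.1 CPM in untreated DC1a, 20.3 and 25.9 in DC1b, 13.9 and 1.77 in DC2 and 15.9 and 2.47 in DC3. After TLI it was at 46.2, 31.2, 4.38 and 1.41 CPM in DC1a, 29.5, 18.7, 7.17 and 15.1 in DC1b, 24.4, 27.0 and 16.4 in DC2 and 37.9, 40.0, 2.28 and 0.0569 in DC3. In DC1a and DC3 the libraries of pools 1 and 2 stood above both untreated libraries and those of pools 3 and 4 below both. The fitted change was largest in DC2 (3.83 ± 1.67, SE), with an adjusted p of 0.523 by edgeR's quasi-likelihood test. Mean CPM in DC2 was 7.82 ± 8.56 (SD, n = 2) in untreated and 22.6 ± 5.49 (n = 3) in TLI libraries. The fitted value is larger than these means imply, since it also holds a batch term shared by all subsets. Irgm2 was low in untreated DC3 (0.865 and 0.313 CPM) and higher in DC2 (7.12 and 17.8) and DC1b (18.4 and 2.36), differences that did not pass the threshold (adjusted p = 0.272 and 0.483 by edgeR's quasi-likelihood test).

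Iigp1 encodes the effector IRGA6, which coats and ruptures parasite vacuoles. Its highest values were 15.8 and 14.2 CPM in DC1a of TLI pools 1 and 2, against 3.54 and 3.20 in pools 3 and 4 and 0.314 and 5.52 in untreated DC1a. In the other subsets it reached at most 10.4 CPM, and it was at 0 in both DC2 libraries and both DC1b libraries of batch 2. Its biological coefficient of variation between libraries, 2.18, was the largest of the members, against 0.591 for Irgm1 and a median of 1.01 over all genes tested.

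Among the GBPs of chromosome 3, Gbp2, which is recruited to parasite vacuoles and cytosolic bacteria, ran from 0 to 50.8 CPM with a median of 12.1. Untreated DC2 libraries held 22.9 and 50.8 CPM and DC1a libraries 6.17 and 5.56, while the DC1b pair was at 0 and 20.9. Gbp5, known for promoting assembly of the NLRP3 inflammasome, was highest in DC1a, at 6.07 and 9.92 CPM in untreated mice and 9.39, 14.8, 5.95 and 3.18 after TLI. Elsewhere Gbp5 was uneven, for example 1.17, 11.1, 0.222 and 14.7 CPM in TLI DC1b. Gbp3 ran from 0 to 42.8 CPM and was uneven in the same way, with 17.9, 0.843, 25.0 and 1.82 CPM in TLI DC1b.

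Gbp7, which takes part in assembly of the phagosomal oxidase, was at 0 in both DC1a and both DC3 libraries of untreated mice and at 8.99 and 2.76 CPM in DC1b and 1.34 and 1.14 in DC2. After TLI it was at 3.24, 2.24, 3.08 and 0 CPM in DC1a, 1.43, 2.24, 22.2 and 7.44 in DC1b, 13.2, 50 and 6.27 in DC2 and 6.21, 21.6, 0.176 and 3.84 in DC3. The TLI mean of Gbp7 was 19.4-fold the floor of 3 counts of the untreated libraries in DC1a (2.14 ± 1.49 CPM, SD, n = 4). In DC3 it was 62.7-fold that floor (7.97 ± 9.45, n = 4), or 26.8-fold without DC3 of pool 2. As the floor covers counting error only, these ratios are no lower bounds of the change. Gbp2 in untreated DC1b, for example, was at 0 in 1 library and at 20.9 CPM in the other. The TLI change of Gbp7 was called in neither subset by edgeR's quasi-likelihood test (adjusted p = 0.386 and 0.348), whereas DESeq2's test called both (adjusted p = 0.0062 and 0.000342). A fitted fold change against libraries at 0 is no measure of size. The call for Gbp7 thus depended on the test, and 1 of the 4 TLI DC1a libraries was itself at 0.

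Over the set, TLI libraries had higher fitted values for most members without a call in any subset. In DC1a 0 of 10 members passed the threshold, beside 0.0102% of all genes, and 10 of 10 had a fitted value above 0 with a median log2 fold change of 1.56 against 0.15 over all genes. In DC1b it was 0 of 10 (0.454% of all genes), with 9 above 0 and a median of 1.38 against 0.09. In DC2 it was 0 of 10 (0.117%), with 8 above 0 and a median of 1.25 against 0.02. In DC3 it was 0 of 10 (0.0255%), with 9 above 0 and a median of 1.47 against −0.05. With Gbp7 at its ratio to the floor in place of the fitted value, the medians of DC1a and DC3 stayed at 1.56 and 1.47. The 4 comparisons share one estimate of the batch difference, so they are not separate lines of evidence.

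At an unadjusted p under 0.05 stood Gbp7 in DC1a and in DC3, Igtp in DC2 and no member in DC1b, while 8.81% to 12.1% of all genes did so. The intervals were wide: the 95% confidence interval of the log2 fold change in DC1a ran from −0.06 to 3.36 for Irgm1, the most precise of the members, and from −2.10 to 3.55 for Gbp9. These data thus leave room for both no change and a change of several fold.

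**Figure D3:**
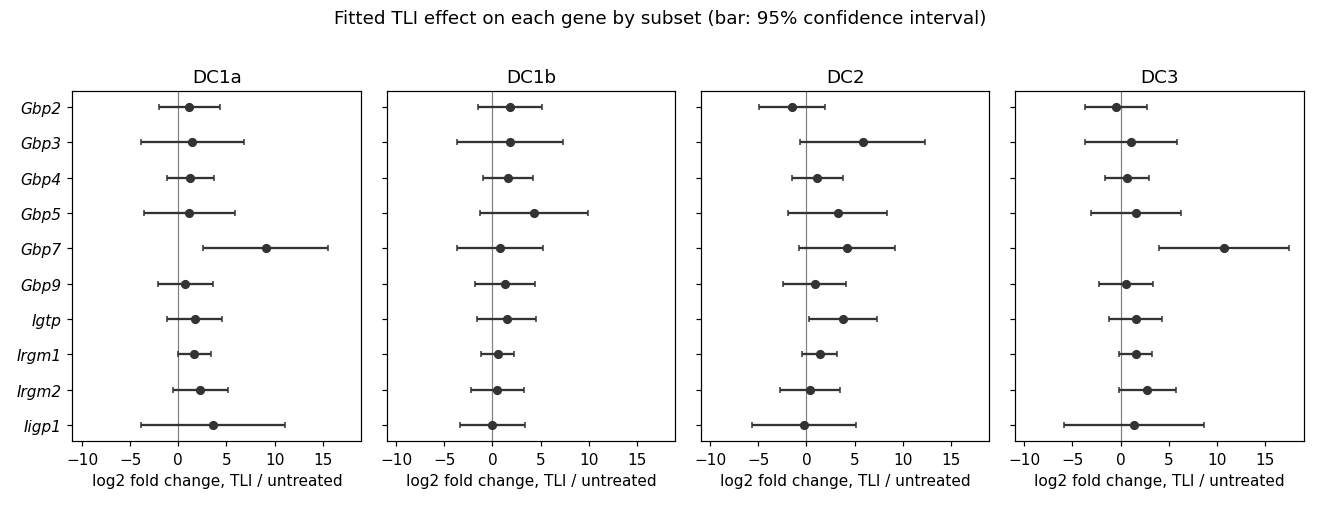
Fitted log2 fold change of each member between TLI and untreated libraries in each subset, with bars for the 95% confidence interval of the fit. Most points lie right of 0, and apart from Gbp7 in DC1a and DC3, where the untreated libraries are at 0, and Igtp in DC2 the intervals include 0.

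The medians depended on how the batches were treated. Within batch 1 alone, with TLI pools 1 and 2 and the untreated pools, they were 1.82 in DC1a, 0.49 in DC1b, 1.21 in DC2 and 1.80 in DC3, and without a batch term in the fit of all libraries 1.14, 0.14, 0.22 and 1.10. The counts of members above 0 were then 10, 8, 7 and 8 of 10 within batch 1 and 10, 7, 5 and 8 without the term. No member was called in either case, and DESeq2's test on all libraries called Gbp7 in DC1a and DC3 and no member in DC1b or DC2. Whether the TLI effect differed between subsets was tested for each gene, and 0 of 10 members were called by edgeR's quasi-likelihood test over the 4 subsets, beside 0.117% of all genes. Gbp7 alone had an unadjusted p under 0.05 in that test (adjusted p = 0.619). DESeq2's test over the 4 subsets also called 0 members, whereas its test of single pairs of subsets called Gbp7 between DC3 and DC1b (adjusted p = 0.0183).

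Counting libraries that do not overlap describes the same contrast without a fit. In DC1a, 9 of 10 members, all but Gbp5, had both TLI libraries of batch 1 above both untreated libraries, beside 22.7% of all genes tested. The count was 1 of 10 in DC1b (Gbp2), beside 13.8%, and 4 of 10 in DC3 (Gbp4, Gbp7, Igtp and Irgm2), beside 13.0%. Below both untreated libraries stood 0 members in DC1a, 2 in DC1b and 0 in DC3, beside 26.3%, 28.7% and 24.5% of all genes. With TLI batch 2 in place of batch 1, 0 of 10 members of DC1a stood above both untreated libraries and 5 stood below both, beside 19.2% and 24.0% of all genes. In DC1b 0 stood above and 2 below, beside 17.4% and 28.2%, and in DC3 1 above and 2 below, beside 17.3% and 26.6%. Batch and treatment cannot be told apart in the second comparison, since the untreated libraries are all of batch 1.

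The 2 batches of TLI mice were then compared within the treatment, a comparison chosen after the values by pool were seen. Gbp4 was at 46.3 and 133 CPM in DC1a, 33.8 and 48.5 in DC1b, 62.2 in DC2 and 42.7 and 28.2 in DC3 of batch 1. In batch 2 it was at 21.7 and 10.2, 25.4 and 14.6, 11.8 and 27.1, and 1.02 and 0.171 CPM in the same order. Each of the 7 libraries of batch 1 was above each of the 8 libraries of batch 2 (28.2 to 133 against 0.171 to 27.1 CPM). The share of all genes that separate in this way was not counted, so the separation does not set Gbp4 apart from other genes. The fitted log2 fold change between batches was −2.65 ± 0.72 (SE; adjusted p = 0.0184, edgeR's quasi-likelihood test). With the overlapping Gbp4, Gbp8 and Gbp9 summed, the difference was −1.16 (adjusted p = 0.0105), and the batches overlapped, at 36.6 to 287 CPM in batch 1 and 14.3 to 170 in batch 2. Igtp also fell, from 18.7 to 46.2 CPM in batch 1 (median 31.2) to 0.0569 to 27.0 in batch 2 (median 5.78), by −2.84 ± 0.93 on the log2 scale (adjusted p = 0.0449). In DC2 alone the groups did not separate, with 24.4 CPM in batch 1 and 27.0 and 16.4 in batch 2.

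Gbp4 and Igtp were the 2 of 10 members called. Over all genes 16.7% were called between these batches, and 7.70% were called as lower in batch 2, so the comparison is one of broad differences. The other 8 members did not pass the threshold, and 9 of 10 had a fitted value below 0, with a median of −1.71 against −0.23 over all genes. Gbp7 had a fitted value of 0.02. In DC1a 8 of 10 members, all but Gbp3 and Gbp7, had both libraries of batch 1 above both of batch 2, beside 28.9% of all genes, and in DC3 it was 7 of 10, all but Gbp2, Gbp9 and Iigp1, beside 21.9%. In DC1b it was 3 of 10, beside 20.9%, and in DC2 batch 1 holds 1 library. The call for Igtp was lost on leaving out any of 11 of the 15 TLI libraries (adjusted p up to 0.106), whereas that for Gbp4 was kept in all 15 fits (adjusted p of at most 0.0488). Libraries of a pool number are taken to come from the same mice, so these 15 libraries stand for 4 pools.

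**Figure D4:**
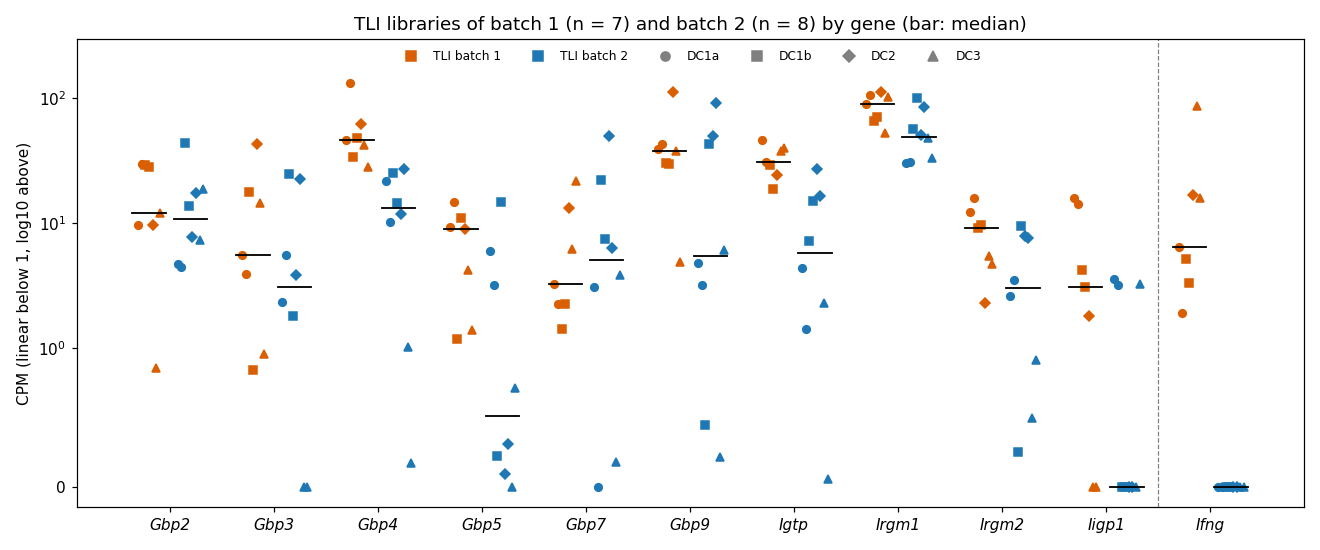
CPM of each member and of Ifng (right of the dashed line) in TLI libraries of batch 1 (orange, n = 7) and batch 2 (blue, n = 8), on a scale that is linear below 1 CPM and log10 above; symbols are subsets and black bars medians. The groups of Gbp4 do not overlap, and Ifng is above 0 in each library of batch 1 and at 0 in each of batch 2.

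The ligand moved with the batches. Ifng, the gene of interferon gamma itself, was at 6.47 and 1.91 CPM in DC1a, 5.20 and 3.30 in DC1b, 16.8 in DC2 and 86.2 and 15.8 in DC3 of TLI batch 1. It was at 0 in all 8 libraries of TLI batch 2 and in 7 of 8 untreated libraries, the exception being DC3 of pool 1 at 1.59 CPM. Its mean in batch 1 (19.4 CPM) was 215-fold the floor of batch 2, or 91.6-fold without DC3 of pool 1, ratios that are no lower bounds of the change. Ifng was called between the batches (adjusted p = 0.00438, edgeR's quasi-likelihood test). Fitted values of the receptor chains Ifngr1 and Ifngr2 were also lower in batch 2, by 0.99 and 2.08 on the log2 scale (adjusted p = 0.0122 and 0.0495, same test). That makes 3 of 3 genes of ligand and receptor, beside 7.70% of all genes called as lower. The batches overlapped for Ifngr1 in DC1b (202 and 486 CPM against 308 and 267) and for Ifngr2 in DC2 (37.4 against 33.7 and 78.3). In the other subsets, batch 1 libraries of either gene stood above those of batch 2.

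Markers of natural killer and T cells, which make interferon gamma, and of erythroid cells differed between the same batches. The 8 natural killer cell markers summed to between 209 and 4178 CPM in TLI batch 1, between 10.7 and 162 in TLI batch 2 and between 5.56 and 451 in untreated libraries. The 8 T cell markers summed to 115 to 720 CPM, 2.50 to 39.7 CPM and 0.571 to 55.5 CPM in the same order, and Trac was at 0 in all of batch 2. Summed erythroid markers were at 19288 to 133558 CPM in TLI batch 1, 143 to 7144 in TLI batch 2 and 56.3 to 2276 in untreated libraries. The dendritic cell markers themselves ran from 29111 to 101933 CPM in TLI batch 1 and from 10575 to 34051 in TLI batch 2. Depth differed too, at 21107794 to 28433154 counts in TLI batch 1 and 28456134 to 36997890 in batch 2. The part of other cells, depth and batch in the values of the GTPases was not tested, and in such bulk samples fewer cells of a type and less RNA per cell cannot be told apart.

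Other genes of the pathway were counted in the same comparison. Of all genes, 16.7% were called in it, and 7.70% were called as lower in batch 2. Of 17 other GBP and IRG genes tested, 5 fell in batch 2 and 1 rose. Tgtp2 and Tgtp1, near-identical IRG genes between which reads can be split, fell by 1.22 ± 0.27 and 1.00 ± 0.27 on the log2 scale (adjusted p = 0.00493 and 0.0193), and 9930111J21Rik2 rose (1.28 ± 0.28, adjusted p = 0.00465). Of 5 feedback inhibitors 3 fell, among them Pias1 (−1.66 ± 0.32, adjusted p = 0.00157), and Ptpn6 (−1.19 ± 0.37), a phosphatase. Of 15 other interferon gamma targets 6 fell, led by the serpin gene Serpina3g (−2.08 ± 0.65), the peptide transporter gene Tap2 (−1.99 ± 0.56) and the immunoproteasome gene Psmb9 (−1.42 ± 0.15).

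None of the 6 kinases and transcription factors was called by edgeR's quasi-likelihood test, and Irf1 was at −0.44 ± 0.53. At an unadjusted p under 0.05 stood 2 of the 6, beside 31.3% of all genes. DESeq2's test called 2, beside 30.2% of all genes. Among 20 type I interferon-stimulated genes, which respond to another class of interferon, 1 fell, Irf7 (−1.30 ± 0.24). DESeq2's test called 6 of these 20, and 7 of the 15 other interferon gamma targets. The median log2 fold change was −0.88 for the type I list and −0.83 for those targets, against −0.23 over all genes. Of 13 autophagy conjugation genes, whose products guide IRG and GBP proteins to vacuoles, 1 fell, the cargo receptor gene Sqstm1 (−2.61 ± 0.64). Of 8 genes of the inflammasome, which acts downstream of GBPs, Il1b fell (−2.98 ± 0.19) and Pycard rose (0.72 ± 0.16). Between TLI and untreated mice 0 of the 87 genes of the 8 lists were called in any subset by edgeR's quasi-likelihood test. At an unadjusted p under 0.05 stood 17 in DC1a, 21 in DC1b, 15 in DC2 and 10 in DC3, beside 9.57%, 12.1%, 8.81% and 10.2% of all genes. DESeq2's test called 11, 16, 4 and 4, beside 3.82%, 6.44%, 4.55% and 3.73% of all genes.

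Subsets of untreated mice gave no called member. Over the 6 pairs of subsets and 10 members, 0 of 60 tests passed the threshold of edgeR's quasi-likelihood test, and 6 had an unadjusted p under 0.05, beside 7.32% to 12.7% of all genes in the single pairs. Of all genes, 0.939% were called in DC1b versus DC1a, 2.13% in DC2 versus DC1a, 0.245% in DC3 versus DC1a, 0.459% in DC2 versus DC1b, 0.444% in DC3 versus DC1b and 0.913% in DC3 versus DC2. By mean CPM, DC1b and DC2 each had the highest level for 4 members, and DC2 and DC3 each the lowest for 4. No pair of neighbours in these orders differed past the threshold, the lowest adjusted p being 0.249 (Gbp7, DC2 above DC1a). DESeq2's test called 6 of the 60, beside 6.37% of all tests over all genes, 4 for Gbp7 against the groups at 0 and Irgm2 as lower in DC3 than in DC1b and DC2.

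After TLI, 0 of 60 tests passed as well, and 5 had an unadjusted p under 0.05, beside 10.2% to 17.3% of all genes. Of all genes, 1.44% were called in DC1b versus DC1a, 3.43% in DC2 versus DC1a, 0.750% in DC3 versus DC1a, 0.225% in DC2 versus DC1b, 1.14% in DC3 versus DC1b and 1.33% in DC3 versus DC2. DC3 had the lowest mean of the 4 subsets for 7 of the 10 members. Against each other subset, 9 of 10 members had a lower fitted value in DC3, with medians of −1.06 against DC1a, −1.76 against DC1b and −1.75 against DC2, while over all genes they were −0.01, −0.08 and −0.03. Within batch 1 these medians were −1.18, −0.45 and −0.66. Neighbouring subsets did not differ past the threshold for any member, the lowest adjusted p being 0.396 (Gbp4, DC1b above DC3).

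Gbp9 stood out by rank. Its DC2 libraries held 76.5 and 168 CPM in untreated mice and 112, 50 and 92.5 after TLI, while the 18 libraries of the other subsets held at most 43.3. It was the 1 member of 10 with each DC2 library above each library of the other subsets, a pattern of 0.189% of all genes that was looked for after its values were seen. Its fitted differences did not pass the threshold, being 2.53 ± 1.56 on the log2 scale against DC1a in untreated mice (adjusted p = 0.517, edgeR's quasi-likelihood test) and 2.65 ± 1.23 after TLI (adjusted p = 0.279). Between DC3 and DC2 after TLI the fitted difference was −3.56 ± 1.24 (adjusted p = 0.220), which DESeq2's test called (adjusted p = 0.0134). Its levels in DC3 were 5.10 and 20.6 CPM in untreated mice and 37.8, 4.91, 0.211 and 6.09 after TLI.

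Because Gbp4, Gbp8 and Gbp9 overlap, their counts were also summed before the fit, a choice made after the data were seen. The sum was 310 and 447 CPM in untreated DC2 and 56.0 and 27.8 in untreated DC3, and 287, 170 and 145 CPM in TLI DC2 against 100, 36.6, 30.0 and 14.3 in TLI DC3. DC2 libraries did not overlap DC3 libraries in either treatment. The sum was lower in DC3 than in DC2 by −3.24 on the log2 scale in untreated mice (adjusted p = 0.0104) and by −2.40 after TLI (adjusted p = 0.00527, edgeR's quasi-likelihood test), the only such calls for a sum among the pairs. Gbp8, which is no member, made up 204 and 213 CPM of the sum in untreated DC2 and 25.5 and 3.80 in untreated DC3.

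**Figure D5:**
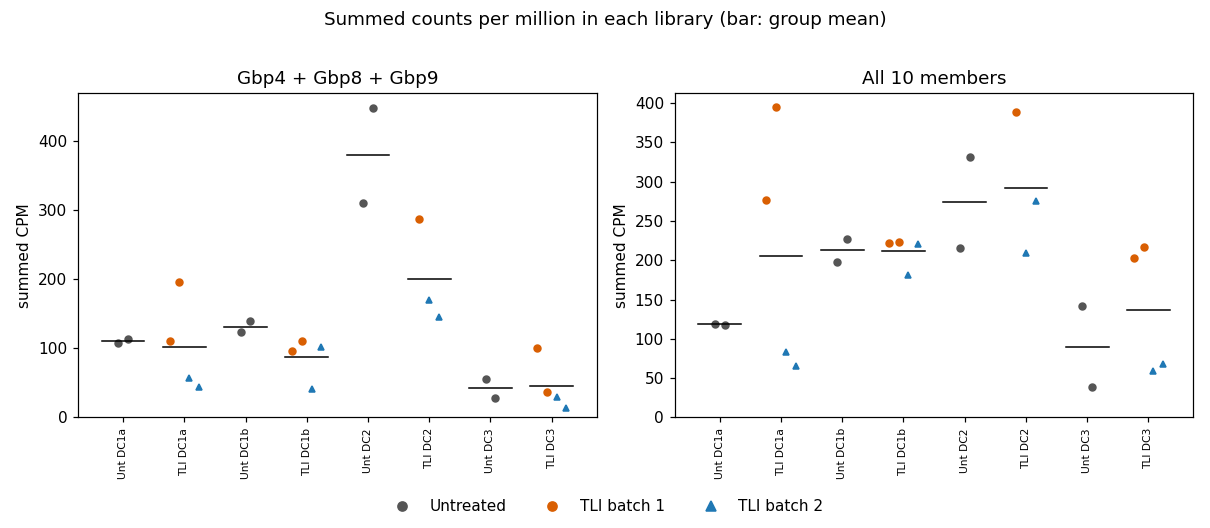
Summed CPM of Gbp4, Gbp8 and Gbp9 (left) and of all 10 members (right) in each library by subset and treatment (Unt, untreated); black bars are group means, circles batch 1 and triangles batch 2. The left sum averages 378 CPM in untreated DC2 and 201 in TLI DC2, against 41.9 and 45.3 in DC3.

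In the other pathway lists, subsets differed for genes other than the members, most often between DC2 and DC1a. There 7 of the 87 genes were called in untreated mice and 13 after TLI, beside 2.13% and 3.43% of all genes. That pair also had the most calls over all genes in either treatment. Irf8, the factor that marks DC1 cells and also binds interferon-response promoters, was lower in DC2 than in DC1a by −5.06 ± 0.95 on the log2 scale in untreated mice (adjusted p = 0.00809) and by −4.19 ± 0.73 after TLI (adjusted p = 0.00293). The chemokine gene Cxcl9 was at 431 and 449 CPM in untreated DC1a and at most 111 in the other untreated subsets. It was lower in DC2 than in DC1a by −4.87 ± 0.62 (adjusted p = 0.000449). Psmb9 was lower in TLI DC2 than in TLI DC1a (−2.51 ± 0.23, adjusted p = 5.7e-06). Among the other IRG genes, Tgtp2 was lower in DC3 than in DC2 in untreated mice (−2.51 ± 0.52, adjusted p = 0.0278).

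Among inflammasome genes, Nlrp3 and Il1b were higher in untreated DC2 than in DC1a (3.25 ± 0.76 and 1.87 ± 0.35, adjusted p = 0.0328 and 0.00751). After TLI, Casp1, the protease gene of the inflammasome, was higher in DC1b, DC2 and DC3 than in DC1a (1.92 ± 0.28, 1.98 ± 0.30 and 1.75 ± 0.28). Gabarap, one of the autophagy conjugation genes, was lower in DC2 and DC3 than in DC1a after TLI (−1.29 ± 0.24 and −1.09 ± 0.22). Rtp4, a type I interferon-stimulated gene, was higher in DC2 than in DC1a in both treatments (adjusted p = 0.0259 and 0.00853).

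The members did not move as a single block. Over the 45 pairs of members, Pearson's r of log2 CPM over the 23 libraries ran from −0.26 (Gbp7 and Iigp1) to 0.76 (Gbp4 and Igtp), with a median of 0.23 and 9 pairs over 0.5. Gbp9 and Irgm2 correlated at 0.66, Gbp7 and Irgm1 at 0.60 and Gbp5 and Iigp1 at 0.53, while Gbp2 had no pair over 0.11. These values are a description, since libraries share pools, batch and depth. Of 10159 genes with a mean of at least 5 CPM, those whose log2 CPM was most like the mean of the standardized members included Serpina3g (r = 0.849), Lamp1 (0.830), Tgif1 (0.826), Srd5a3 (0.816), Tgtp1 (0.814), Blvrb (0.813), Serpinb6a (0.805), Smpdl3b (0.804) and Ocel1 (0.789). Serpina3g and Tgtp1 belong to the pathway lists above. By Spearman's rank correlation, or by Pearson's r over the 8 group means, 2 of the first 10 by Pearson's r over libraries remained among the first 10.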

How the data were processed

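RNA of sorted cells was copied and amplified with a SMARTseq v4 low input kit and sequenced as paired reads. Per the labels and the study's methods, the authors trimmed reads with Trimmomatic, used HISAT2 for alignment to GRCm38, and obtained from StringTie's coverage of transcripts the deposited estimated counts of each gene, whole numbers with no scaling for depth. BALB/c reads were thus placed on the reference strain's genome. Whether counting used strand is not given in the sources used here.

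All 23 libraries were analysed in R 4.3.3 with edgeR 4.0.16 (TMM scaling, filter on low expression, robust quasi-likelihood fit of 8 groups and a batch term, tested on simulated data). Benjamini-Hochberg adjustment covered 19597 genes, with calls at an adjusted p under 0.05. Since the batch term is estimated from TLI libraries, TLI effects lean on batch 1. DESeq2 1.42.0, limma 3.58.1 and Python 3.11.15 served alternatives and descriptions. Symbols and positions came from GENCODE M21, which held 47310 of 47729 identifiers. The common coefficient of variation was 1.08.

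All members are named. Of each pathway list at most 3 called genes a comparison, the largest changes with a mean of at least 5 CPM, are named. Members and lists were chosen with earlier results of these data known, and the comparisons of Gbp9 in DC2, of sums and of the batches of TLI mice were chosen after seeing the data. Nothing says how many mice a pool held, and p-values measure the spread between these libraries. Pairing comes from the pool numbers in the labels, which are taken to mark the same mice, though the labels do not say so. Residuals of 33 same-pool pairs of libraries correlated at −0.00585 to 0.393 over genes (median 0.122, 20 pairs over 0.1). Pairs of untreated libraries ran from −0.00585 to 0.0159 and pairs of TLI libraries from 0.0801 to 0.393. Only group means were removed, so TLI residuals still hold the difference between batches. These correlations therefore do not measure the pairing of mice alone. Other alternatives were RLE scaling, other filters, batch 1 alone, no batch term, a replicate block, summed overlapping genes and leaving out each library. Some items are not reported here.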

Additional observations from a re-analysis of the deposited data

Results flagged for a closer look

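In 30 checks, 10 members in each of the 3 groups of 4 libraries (TLI DC1a, DC1b and DC3), 4 had 1 library far from the other 3 by Dixon's criterion. Chance gives about 1 such flag in 20 checks for independent values of a normal distribution, which CPM of these genes need not follow. Irgm2 was at 0.249 CPM in TLI DC1b of pool 3, against 9.10, 9.68 and 9.55 CPM in the others. In TLI DC3 of pool 1, Gbp3 was at 14.6 CPM and Gbp9 at 37.8 CPM, against at most 0.960 and 6.09 CPM in the other 3 libraries of that group. That library also held the highest Ifng (86.2 CPM), natural killer cell markers (4178 CPM) and erythroid markers (133558 CPM) of the series, whose part in these values was not tested. Iigp1 was at 3.27 CPM in TLI DC3 of pool 4 and at 0 in the other 3, where any value above 0 would be flagged.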

How the results depend on the processing

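Of the alternative counts of called members, 132 stayed within 1.5 times the main count and 20 did not. Most of the 132 were 0 beside a main count of 0, in comparisons where 0.0102% to 1.39% of all genes were called. Such agreement says little, since few calls could arise there. Between TLI batches, where the main count was 2, most alternatives fell outside that range. Several medians between TLI subsets and of differences in TLI effect, on which no call rests, turned their sign with the treatment of the batches. For example, DC1b against DC1a after TLI went from 0.55 to −0.59 within batch 1 and −0.08 without the batch term, and DC2 against DC1a from 0.23 to −0.64 and −0.23. The median difference in TLI effect between DC3 and DC1a went from −0.16 to 0.36 and 0.17. DESeq2's test called 1 member (Gbp7) in DC1a and 1 (Gbp7) in DC3 between TLI and untreated mice, 6 of 60 tests between untreated subsets, 2 of 60 between TLI subsets and 5 of 10 between TLI batches. Over all genes it called 3.82%, 3.73%, 6.37%, 7.51% and 30.2% in the same order. Summing overlapping genes gave 1 call between untreated subsets and 1 between TLI subsets, and took the batch difference of Gbp4 from −2.65 to −1.16. With at least 10 counts in every library only Irgm1 could be tested, and 0 members were called between batches. Leaving out each library in turn gave 0 to 2 calls between untreated subsets, the 2 being Irgm1 lower in DC3 than in DC1b and DC2 without untreated DC3 pool 1 (adjusted p = 0.0373 and 0.0402), and 1 to 3 between TLI batches, the 3 without DC1b of pool 4. Among those fits, Igtp kept its call between batches only without DC1b of pool 2 or 4 or DC2 of pool 1 or 3. All other comparisons gave 0 calls in each such fit. With the pool as a replicate block 0 members were called between subsets of either treatment or in the TLI comparisons, and 2 between batches. For TLI against untreated mice and for the batches this was a random block in limma, with a consensus correlation of 0.00267. At a value so near 0 the block could hardly change a call, so it does not test the effect of shared pools. On TMM-scaled CPM, 10 in place of 9 members of DC1a and 6 in place of 4 of DC3 had both TLI libraries of batch 1 above both untreated ones, beside 24.3% and 15.6% of all genes. Depth limits the 24 of 230 values at or below the floor of 3 counts. The cause of these shifts was not tested.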
